A study of Schmidtea mediterranea with 15 samples.

Results

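A group of 71 transcript models of the planarian Schmidtea mediterranea, out of 26671 in the table, had a higher mean level 96 h after gamma irradiation than in unirradiated worms but only a limited difference at 24 h. The members were chosen from measured values. RPKM is reads per kilobase of model, scaled by a number close to the library's total. With the mean RPKM of the 3 libraries of a time, a log2 ratio to 0 h was formed after adding 0.5 RPKM to each mean. Membership required a ratio above -0.7 and below 0.4 at 24 h, a ratio of at least 0.6 at 96 h, and a mean of at least 2 RPKM at 96 h. All 71 members also passed the filter for testing, a level of 1 RPKM or more in 3 or more of the 15 libraries, which 21231 models passed in all.

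The samples were whole small worms of the clonal CIW4 line, kept in salt water with gentamicin, an antibiotic, and unfed for at least 1 week beforehand, and RNA was read from polyA libraries. Worms at 24, 48, 72 and 96 h after 6000 rad and unirradiated worms, labelled WT, at 0 h had 3 libraries each. All groups thus share one clonal line, the antibiotic and the starvation, and unirradiated worms were sampled at 0 h only, so irradiation, elapsed time and handling cannot be told apart. The labels do not state whether replicates of a time were independent batches of worms, and the p-values below therefore reflect the variation between libraries, which may be purely technical.

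Planarians keep a population of dividing cells, the neoblasts, which replace worn cells and drive regeneration. Ionising radiation at high dose removes these cells first, and their differentiating descendants are lost in the days that follow while mature tissue remains. Levels in whole worms mix many cell types, and fewer cells of a type and less RNA per cell cannot be told apart. The table does not pair the models with gene names, so no function or cell type is attached to any member, the whole-worm source was not checked against marker genes, and only 4 members are named by their ID.

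The irradiated libraries held 16435841 to 30707808 reads, worked out from the steps of the deposited values, and the 0 h libraries 9749391 to 13801926. Every irradiated library was thus deeper than every 0 h library. Members were mostly scarce and short. Their mean level at 0 h had a median of 3.44 RPKM and ranged from 0.947 to 266 RPKM, against a median of 6.72 RPKM over all tested models. Their length had a median of 732 bases (range 171 to 15435), against 1129 bases over all tested models. The members had a median of 70.3 reads per library, against 170 for all tested models, and 20 of the 71 had at most 10 reads in some library. Scarcity limits the precision of most members, and 30 of the 71 had a mean of at least 100 reads per library.

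At 96 h the 71 members stood at 1.53 to 2.17 times their 0 h level in mean RPKM, with a median ratio of 1.67, and 8 of them had at least doubled. These values chose the members and are given as a description without a test. Most lay close to the limit: 39 of the 71 had a 96 h log2 ratio below 0.65, and 60 further models that met the other conditions lay between 0.55 and 0.6. The lowest member stood at 0.601 and the highest model outside at 0.598. At 24 h the highest member stood at 0.390 and the lowest model outside at just above 0.4. By the level limit, the lowest member had a 96 h mean of 2.02 RPKM and the highest model outside had 1.97 RPKM, with 104 models left out by this limit alone. In the limma fit across all models, with calls at an adjusted p below 0.05, 63 of the 71 were called higher at 96 h (22.7% of all tested models were) and 0 lower (22.2% were). All 3 values at 96 h exceeded all 3 at 0 h for 65 members, against 28.1% of tested models. That contrast was used for the choice, so nothing is read from these counts.

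At 24 h the members lay on both sides of their 0 h level. On the mean log2(RPKM + 0.5) scale the 24 h difference from 0 h had a median of 0.19 over the members, from -0.68 to 0.42. The mean was above that of 0 h for 54 members, where 48.9% of tested models were above, and below it for 17. All 3 values at 24 h lay above all 3 at 0 h for 23 members, where 23% of all tested models did so, and below them for 4 members, where 24.9% did so. In the fit 13 members were called higher at 24 h (19.4% of all tested models were) and 2 were called lower (20.9% were). These 24 h values also entered the rule, so nothing is read from the counts.

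The 48 h and 72 h libraries did not enter the rule, although a difference from 0 h still uses the 0 h libraries that did. At 48 h all 71 members had a mean above that of 0 h, where 53.4% of tested models did, with a median log2 difference of 0.38 and a range from 0.004 to 0.97. For 36 members all 3 values at 48 h exceeded all 3 at 0 h, against 25% of tested models. Called higher at 48 h were 32 members, against 20.5% of tested models, and 0 were called lower, against 19.5%. The count of 32 was 23 without 48 h replicate 3, a fit for which the share of tested models was not worked out. At 72 h the median was 0.38 again but the range widened to -0.52 at the low end and 1.02 at the high end. The mean was above that of 0 h for 59 members (52.5% of tested models) and below it for 12. Called higher at 72 h were 29 members (22.1% of tested models) and called lower 2 (21.5%). The count of 29 was 21 without 72 h replicate 3, again without a share of tested models. Because members were partly picked for low values in the 0 h libraries, the counts of members at 48 h and 72 h are not independent of the choice.

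**Figure D1:**
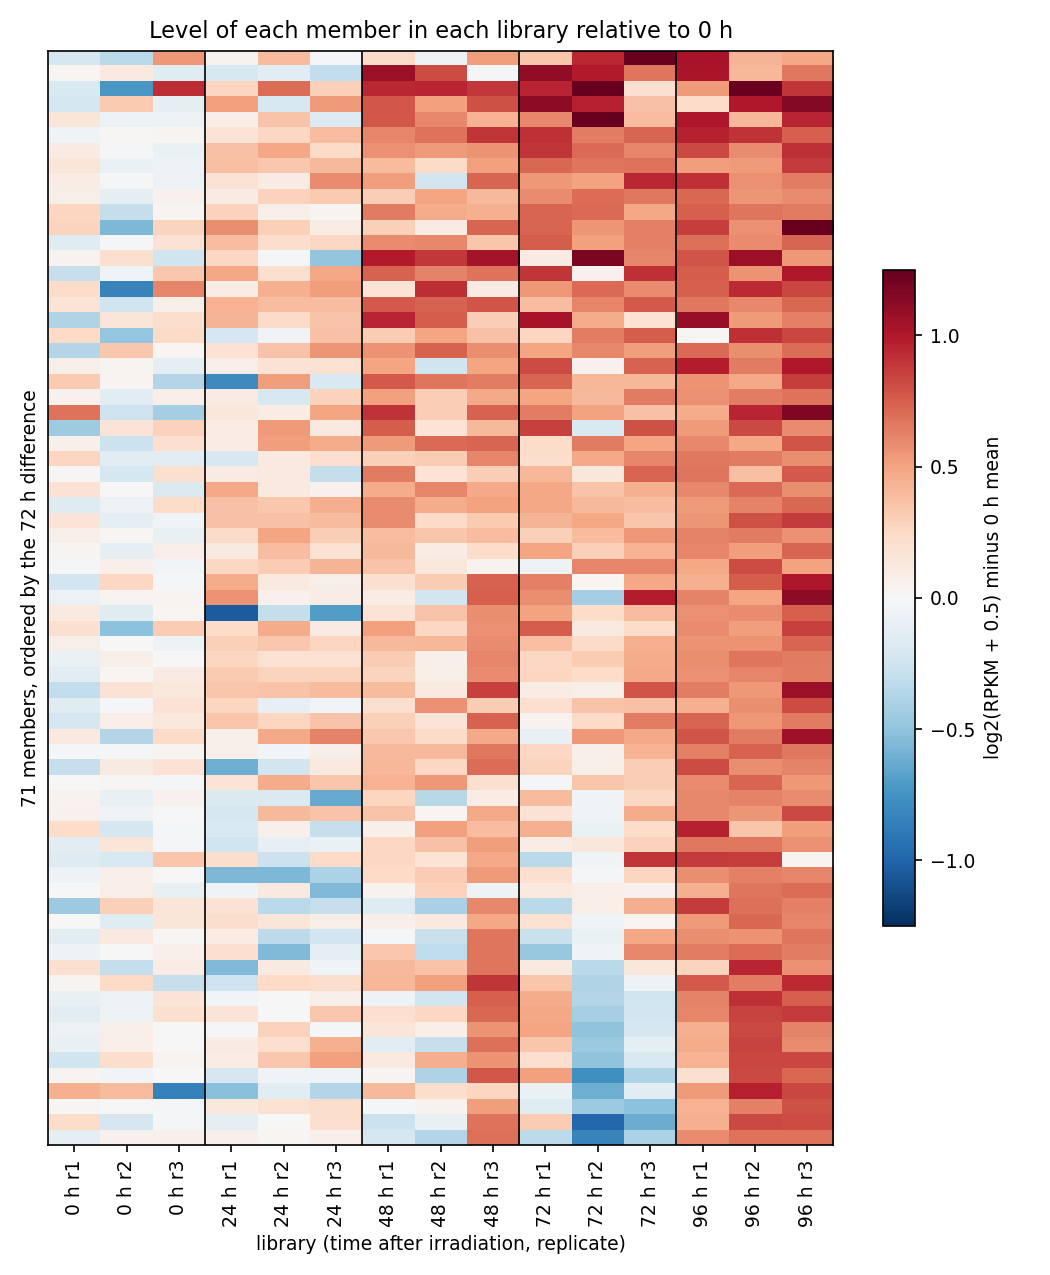
Each row is 1 of the 71 members and each column 1 of the 15 libraries. Colour gives log2(RPKM + 0.5) minus the mean of the member's 0 h libraries, red above and blue below, and values past the ends of the scale take the end colour. The 96 h columns are red almost throughout, whereas in the lower rows 48 h replicate 3 is red beside paler 48 h replicates, and 72 h replicates 2 and 3 are blue.

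Taking the median over the 71 members within each library, the difference from 0 h was 0.13, 0.19 and 0.21 in the 24 h libraries. It was 0.39, 0.30 and 0.56 in 48 h replicates 1, 2 and 3, and 0.39, 0.24 and 0.45 in 72 h replicates 1, 2 and 3. At 96 h it was 0.60, 0.65 and 0.72. The 48 h and 72 h libraries overlapped, and both lay between the 24 h libraries below and the 96 h libraries above. The rule caps the 24 h ratio and sets a lower limit at 96 h, so this order is partly fixed by the choice. The SD over the 3 libraries was 0.13 at 48 h and 0.11 at 72 h, against 0.04 at 24 h and 0.06 at 96 h. Over all tested models the same library medians stayed between -0.01 and 0.04.

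**Figure D2:**
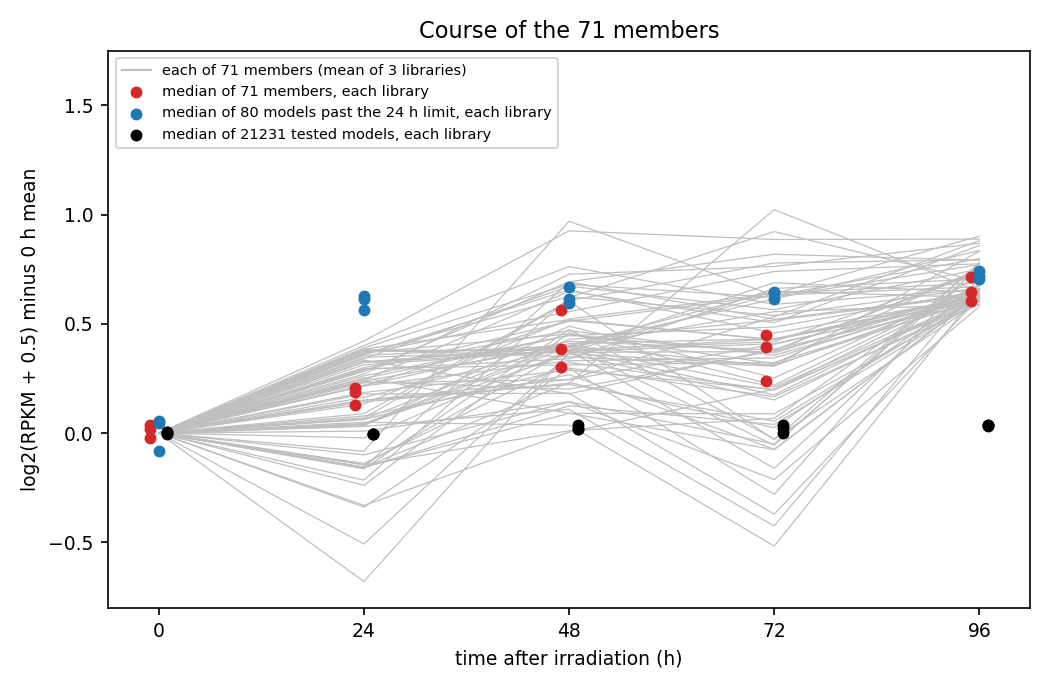
Difference from 0 h in log2(RPKM + 0.5) against time after irradiation. Grey lines are the means of the 71 members. Red points are the median over the members in each library, blue points the median over 80 models with the same 96 h limits but a 24 h ratio at or above 0.4, and black points the median over all 21231 tested models. The red points are similar at 48 and 72 h and lie higher at 96 h, while the blue points are high from 24 h on. The limits at 24 and 96 h partly fix these positions.

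A test wholly outside the rule was possible only between 72 h and 48 h, and almost no member passed it. With limma 0 of the 71 members were called higher at 72 h than at 48 h, where 0.41% of tested models were, and 1 was called lower, where 1.4% were. The shares among the members were close to those of the whole table. At an unadjusted p below 0.05, 3 members were higher (5.76% of tested models) and 10 were lower (7.06%). All 3 values at 72 h lay above all 3 at 48 h for 3 members (8%) and below them for 4 (8.7%). The median difference over the members, 72 h minus 48 h, was -0.08 on the log2 scale, against -0.003 over all tested models, with 29 members above 0, where 49% of tested models were, and 42 below. This median was 0.006 without 48 h replicate 3, and 0.05 without both this library and 72 h replicate 2, so its sign rests on them. Among all tested models 87 models were called higher and 297 lower, of which 22.7% were rises, and after quantile normalization the numbers were 152 and 275, of which 35.6% were rises.

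From 72 h to 96 h the members were mostly higher again. The mean at 96 h was above that at 72 h for 66 of the 71 (48.7% of tested models), with a median difference of 0.29, and all 3 values at 96 h exceeded all 3 at 72 h for 34 members, against 11.1% of tested models. Against 48 h the 3 values at 96 h were all higher for 18 members, against 11.7% of tested models. The 96 h libraries chose the members, so these numbers describe the group and are not tested. Every one of the 42 members that were lower at 72 h than at 48 h was higher at 96 h than at 72 h. These 42 were picked for a low 72 h mean and the rule sets a lower limit at 96 h, so this rise is largely built in. The time with the highest mean was 96 h for 61 members, 72 h for 5 and 48 h for 5. A higher mean at each successive time was seen in 18 members. Shares of tested models were not worked out for these courses, so nothing is read from the counts.

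SMED30020726, a model of 11239 bases, had the highest level of all members at 96 h and the most reads, at least 28840 in each library. At 96 h it measured 499, 478 and 430 RPKM in replicates 1, 2 and 3, against 247, 259 and 263 RPKM at 0 h. Its 24 h libraries measured 289, 306 and 334 RPKM, those of 48 h 391, 411 and 476 RPKM, and those of 72 h 482, 401 and 426 RPKM. All libraries at 24, 48, 72 and 96 h lay above all 0 h libraries, and most of the gain was present by 48 h. Its mean was 469 ± 35.8 RPKM at 96 h and 256 ± 8.05 RPKM at 0 h (SD, n = 3 each), a ratio of 1.83. Between 72 h and 48 h the log2 difference was 0.04 (SE 0.08, limma adjusted p = 0.915), so no change was detected across that day. Its share of all reads was 0.486% to 0.562% at 96 h and 0.279% to 0.296% at 0 h. All 71 members summed to 0.665% ± 0.0377 of the reads in the 96 h libraries and 0.374% ± 0.0136 in the 0 h libraries (SD, n = 3 each), most of it from SMED30020726.

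SMED30019699, 352 bases long, had the largest 96 h ratio of the rule, 0.89, but rests on few reads, 34 to 59 in the 96 h libraries and 9 to 13 in the 0 h libraries. It measured 5.45, 4.22 and 5.52 RPKM at 96 h, against 2.67, 2.58 and 2.29 RPKM at 0 h, a ratio of means of 2.02. The 24 h libraries gave 2.69, 2.90 and 2.93 RPKM, the 48 h libraries 3.72, 2.02 and 3.74 RPKM, and the 72 h libraries 4.78, 2.62 and 4.50 RPKM. Replicate 2 was the lowest at 48, 72 and 96 h, and at 48 h it lay below all 0 h libraries. The 72 h minus 48 h difference of 0.29 did not pass the test (SE 0.20, limma adjusted p = 0.630).

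The single member called between 72 h and 48 h was SMED30012764, 912 bases long, and it fell. It measured 9.17, 7.34 and 7.05 RPKM at 72 h, against 10.1, 10.5 and 14.9 RPKM at 48 h. No 72 h value reached any 48 h value, and all 3 also lay below the 0 h values of 10.4, 10.3 and 10.1 RPKM. At 24 h it stood at 11.2, 11.7 and 12.0 RPKM, and at 96 h at 14.1, 16.1 and 18.1 RPKM. Every 96 h value lay above every value of the other times, except that 14.1 RPKM lay below 48 h replicate 3. The log2 difference, 72 h minus 48 h, was -0.55 (SE 0.13, limma adjusted p = 0.0378), a ratio of mean RPKM of 0.662. This call did not hold without 48 h replicate 2 (limma adjusted p = 0.0512) or 48 h replicate 3 (limma adjusted p = 0.116). It was also lost without 72 h replicate 2 (limma adjusted p = 0.144) or 72 h replicate 3 (limma adjusted p = 0.120), and when limma was run on the 48 h and 72 h libraries alone (adjusted p = 0.229), with a range of 0.00631 to 0.229 over all 13 alternatives. The log2 difference itself was -0.62 without 48 h replicate 2, -0.51 and -0.48 without 72 h replicates 2 and 3, and -0.55 in the 6 libraries alone, but shrank to -0.38 without 48 h replicate 3.

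SMED30034979, 486 bases, was singled out after its values were seen because it showed the same course at a high level. At 72 h it measured 212, 149 and 202 RPKM, against 229, 206 and 427 RPKM at 48 h. In 48 h replicate 3 its level was thus close to the 401, 424 and 425 RPKM of the 96 h libraries, while 48 h replicates 1 and 2 lay below all 0 h values (244, 276 and 277 RPKM). The 48 h and 72 h values overlapped. The 24 h libraries stood at 278, 269 and 277 RPKM. Its 72 h minus 48 h difference of -0.55 did not pass the test (SE 0.19, limma adjusted p = 0.208), and was -0.23 without 48 h replicate 3 (limma adjusted p = 0.473).

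**Figure D3:**
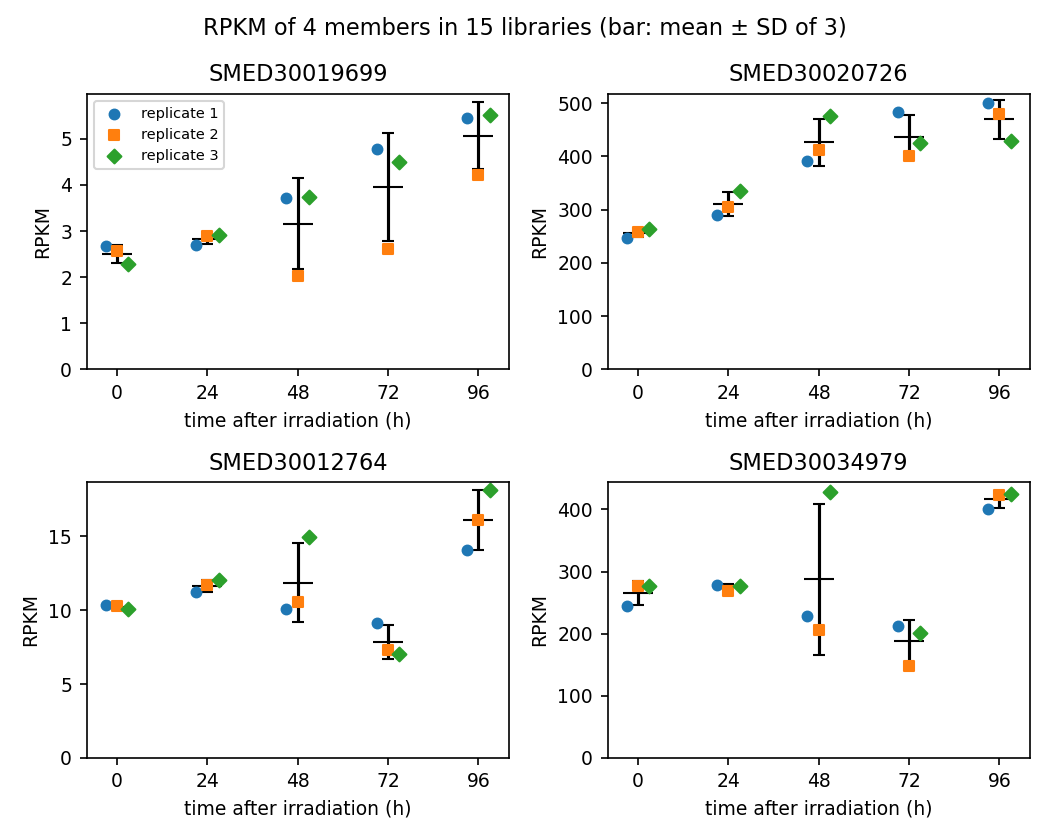
RPKM in each of the 15 libraries for SMED30019699, SMED30020726, SMED30012764 and SMED30034979, against time after irradiation. Symbols mark the replicates and bars the mean ± SD of 3 libraries. SMED30020726 steps up by 48 h and stays there, whereas SMED30012764 and SMED30034979 lie below their 0 h level at 72 h and above it at 96 h.

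A further pair of members exceeded 100 RPKM at 96 h, so that 4 did in all. One, of 316 bases, measured 281, 246 and 267 RPKM at 96 h, against 146, 179 and 186 RPKM at 0 h. Its values were already 215, 204 and 218 RPKM at 24 h, then 209, 189 and 283 RPKM at 48 h and 174, 200 and 265 RPKM at 72 h. Every 24 h library was above every 0 h library, whereas 1 of the 72 h libraries lay within the 0 h range. The other, of 457 bases, was low at 24 h, with 86.1, 89.6 and 80.1 RPKM, and measured 201, 132 and 156 RPKM at 96 h, against 101, 108 and 89.3 RPKM at 0 h. At 48 h it stood at 208, 175 and 97.0 RPKM, the last within the 0 h range, and at 72 h at 214, 197 and 157 RPKM. In this member 48 h replicate 3 was the lowest of its time, the opposite of SMED30034979. Its 72 h minus 48 h difference was 0.30 (SE 0.21, limma adjusted p = 0.629). Both were singled out by their level after the values were seen.

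The spread between libraries of one time was wide among the members, and part of it was shared. At 48 h the SD of the 3 log2 values had a median of 0.19 over the members, against 0.09 over all tested models, and at 72 h it was 0.24 against 0.10. At 24 h it was 0.18 against 0.09, and at 96 h 0.16 against 0.08, so the members varied more than the tested models at these times too. The 80 models with a 24 h ratio at or above 0.4 also varied more than the tested models. Their medians were 0.16, 0.15, 0.16 and 0.13 at 24, 48, 72 and 96 h. At 0 h the median was 0.17 for the members, 0.20 for the 80 models and 0.11 for all tested models. The 48 h and 72 h libraries did not enter the rule, whereas those of 0, 24 and 96 h did. The members are also scarcer than the tested models. Members of at least 100 reads per library had medians of 0.21 at 48 h and 0.19 at 72 h, and those under 100 reads 0.18 and 0.29. In 42 of the 71 members 48 h replicate 3 was the highest of its 3 libraries, as in 35.1% of tested models. In 37 members 72 h replicate 2 was the lowest of its 3, as in 35% of tested models. Both held for 27 members, against 16.3% of tested models. Over the 28 other positions, each library being highest or lowest of its time, the count of members ran from 11 to 40. The shares of tested models in these positions ran from 29.3% to 36.6%. The 40 were for 48 h replicate 2 as the lowest, as in 33.7% of tested models, so replicate 2 was often the lowest at both 48 h and 72 h.

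Measured as a difference from the mean of the other libraries of the time, 48 h replicate 3 stood 0.18 higher (median over the members, log2 scale) and 72 h replicate 2 stood 0.15 lower. The corresponding medians over all tested models were 0.0005 and 0.003. The members with the larger excess in the first library had the larger deficit in the second, with a Pearson correlation of -0.47 across the 71 members, against -0.14 across the 21231 tested models. The models share the same 6 libraries and are not independent, so the correlation is a description. The first was the deepest library of its time, with 29148526 reads, and the second the shallowest, with 16714624. At 96 h the order was the other way, since replicate 3 was the shallowest with 17381483 reads and had the highest member median, 0.72. The part of depth was not tested. Both libraries were singled out after their values were seen.

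**Figure D4:**
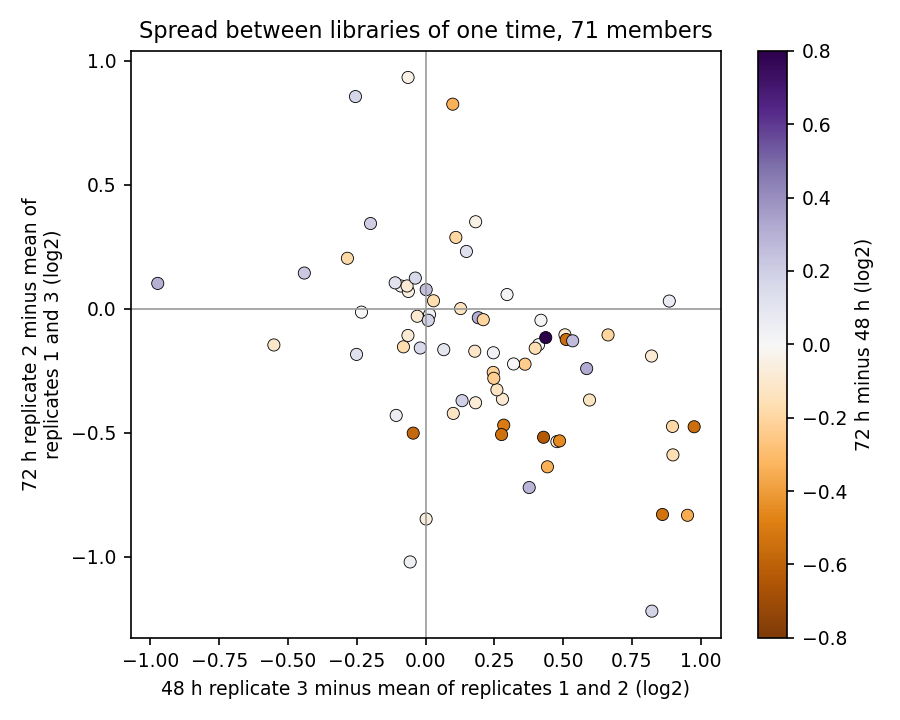
Each point is 1 of the 71 members. The horizontal axis gives 48 h replicate 3 minus the mean of 48 h replicates 1 and 2, the vertical axis 72 h replicate 2 minus the mean of 72 h replicates 1 and 3, both in log2 units, and colour gives the 72 h minus 48 h difference. Points gather to the lower right, where 48 h replicate 3 is high and 72 h replicate 2 is low, and the orange points, lower at 72 h than at 48 h, are mostly there.

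The members differed in when the 96 h level was approached. Taking the first time at which the mean log2 difference reached 50% of that at 96 h, 11 members did so by 24 h, 37 by 48 h, 7 by 72 h and 16 only by 96 h. The median share of the 96 h difference was 28.3% after 24 h, 59.8% after 48 h and 56.4% after 72 h. The 37 members of the 48 h class had a median difference of 0.13 at 24 h, then 0.45 and 0.43 at 48 and 72 h, and 0.65 at 96 h. Their library medians at 48 h were 0.41, 0.41 and 0.57. The mean of these same 3 libraries placed members in the class, so high values in them are partly built in. These classes were formed from the same values and are not tested.

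The 16 members that reached 50% only at 96 h had a median difference of 0.02 at 24 h, then 0.14 and -0.01 at 48 and 72 h, and 0.64 at 96 h. Their 48 h median rests on 1 library, with 0.04 and -0.17 in replicates 1 and 2 and 0.58 in replicate 3. That library was the highest of its time for 13 of the 16, as in 35.1% of tested models. The 12 members whose 72 h mean lay below that of 0 h had the same high library, with 0.07, 0.06 and 0.69 in 48 h replicates 1, 2 and 3. At 72 h their library medians were 0.33, -0.48 and -0.23, so that 72 h replicate 1 was above 0 h and the other 2 were below. At 96 h they were 0.45, 0.83 and 0.77. For 11 of the 12, 48 h replicate 3 was the highest of its time, as in 35.1% of tested models. For 11 of the 12, 72 h replicate 2 was the lowest, as in 35% of tested models. The 12 were picked for a low 72 h mean, so a low 72 h library among them is partly built in. Both groups were formed from the same values, and the counts are not tested. For these 12 members the difference between libraries of one time was as wide as that between times.

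Because the rule picks models with high values at 96 h and low values at 0 h, it was also applied with 1 replicate number left out of the 0, 24 and 96 h groups, and the chosen models were then followed in the left-out libraries. Without replicate 1, 136 models met the rule, without replicate 2, 94 did, and without replicate 3, 111 did, and 42, 38 and 40 of these were among the 71. In the libraries used for the choice the median 96 h ratio was 0.68, 0.68 and 0.66. In the left-out libraries it was 0.34, 0.46 and 0.39, against 0.03, 0.03 and 0.02 over all tested models in the same libraries. A 96 h value above the 0 h value was seen for 82.4%, 81.9% and 81.1% of the chosen models in the left-out libraries, against 52.7%, 52.5% and 52.5% of tested models. The limit of 0.6 itself was met again by 26 models in each case, or 19.1%, 27.7% and 23.4% of the chosen models, against 3.91%, 4.94% and 4.67% of tested models. These sets hold models other than the 71 in the main, and the tested models set beside them are deeper on the whole and were not matched for level, so the values describe the rule rather than the 71 members.

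The earlier times were followed in the same left-out libraries. At 24 h the median was 0.03, 0.05 and -0.0001 for the 3 choices, against 0.21, 0.15 and 0.20 in the libraries used for the choice. At 48 h, where each value compares 1 library with the left-out 0 h library, it was 0.19, 0.20 and 0.28, and at 72 h 0.22, 0.22 and 0.23. Over all tested models these medians lay between 0.002 and 0.03. The order of the times, with 24 h near 0, 48 h and 72 h in between and 96 h highest, was the same in all 3 sets of left-out libraries. The sets are not independent repeats, because the 0, 24 and 96 h libraries left out of one choice were used for the others. All differences of a set also share its 0 h library. Each set holds 1 library a time, so the differences between 48 h and 72 h within a set have no replicate error.

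**Figure D5:**
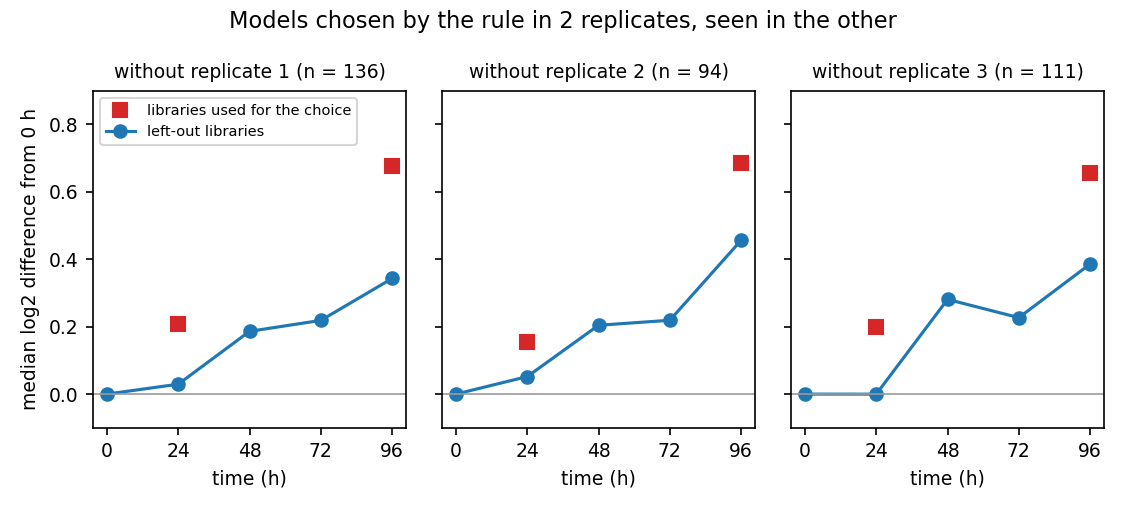
Median log2 difference from 0 h of the models that met the rule when 1 replicate number was left out, 1 panel for each number. Red squares are the libraries used for the choice at 24 and 96 h, and blue circles the left-out libraries at all times, each against the 0 h library of its own number. The blue values at 96 h are 0.34, 0.46 and 0.39, below the red values of 0.68, 0.68 and 0.66.

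With the same 96 h limits, 80 models had a 24 h ratio at or above 0.4 and 2 had one at or below -0.7. The 71 members had a median log2 difference from 0 h of 0.65 at 96 h, against 0.697 for the 80 models, so both groups ended at nearby levels, as the shared limit leads to. The median at 48 h was 0.38 for the members and 0.63 for the 80 models, and at 72 h 0.38 and 0.62. From 48 h to 72 h the medians moved by -0.08 and -0.007. Between 72 h and 48 h 3 of the 80 models were called lower and 0 higher (limma), and 1 and 0 of the 71 members. Of all tested models 1.4% were called lower and 0.41% higher. The excess in 48 h replicate 3 had a median of 0.18 over the members and 0.003 over the 80 models. That library was the highest of its time in 42 of the 71 and in 31 of the 80, against 35.1% of tested models. In 37 of the 71 and in 38 of the 80, 72 h replicate 2 was the lowest of its time, against 35% of tested models. Both groups were chosen by their values at 0, 24 and 96 h and share all libraries, and the difference between them at 48 h and 72 h was not tested.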

How the data were processed

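Levels of 26671 transcript models in 15 libraries were deposited by the authors as RPKM, that is reads scaled by model length and a divisor for each library. This divisor was 0.974 (72 h replicate 2) to 1.03 (24 h replicate 1) times the library's recovered reads. CASAVA 1.8.2, Bowtie and edgeR are named in the submitters' processing notes, with no role or order. For the transcript set, mapping settings, strand use and reads with several matches, details were not given in the sources used here, so overlapping or near-identical models may share reads. RPKM values were whole multiples of steps, from which lengths and reads were worked out (100% of models, tolerance 0.001 reads). With log2(RPKM + 0.5) of all 15 libraries as input, group means by time were estimated in limma 3.58.1 (R 4.3.3), with a variance trend, moderated and two-sided. Adjusted p-values are Benjamini-Hochberg over the 21231 models that reached 1 RPKM in 3 or more libraries, and calls have an adjusted p below 0.05. Because the table holds RPKM, the main test was not a count test, and limma-voom on the recovered reads was an alternative. Fold changes on this scale understate those of low models. Figures were drawn with matplotlib 3.10.9. Recovery and fit were tested on simulated data. The simulation for the fit gave all models the same extra variation and no deviation shared within a library, and its check required only the largest changes to be found. It therefore does not show how well changes as small as those of the members are found.

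The members, lists and tests were chosen with earlier results of these data known. Without gene names, the rule for naming gave the 2 members with the largest 96 h ratio among those with at least 5 RPKM at 96 h and no overlap with 0 h. It also gave the members with the largest fall from 48 to 72 h among those with at least 5 RPKM at 48 h and no overlap, which 1 member met. No marker list was tested. Leaving out 48 h replicate 3 and 72 h replicate 2 together was chosen after seeing the data.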

Additional observations from a re-analysis of the deposited data

Results flagged for a closer look

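SMED30012764 was picked out because its level at 72 h differed from that at 48 h, by -0.553 on the log2 scale (limma adjusted p = 0.0378). It was lower in 3 of 3 libraries at 72 h than in every library at 48 h, and it was the 1 member of 71 called in this contrast, where 1.4% of all tested models were called lower. The call was lost in 5 of the 13 alternatives, among them limma on the 48 h and 72 h libraries alone (adjusted p = 0.229).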

How the results depend on the processing

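The number of models that meet the rule depended on its settings. It was 114 with a pseudocount of 0.1 RPKM, 46 with 1 RPKM and 148 after quantile normalization, of which 66, 40 and 55 were among the 71, and 98 with medians in place of means, of which 38 were. It ranged from 73 to 136 when libraries were left out. It was 112 without 96 h replicate 1. Of the 71, 43, 44 and 51 still met the rule without 0 h replicates 1, 2 and 3, 62, 53 and 50 without 96 h replicates 1, 2 and 3, and 65, 68 and 70 without 24 h replicates 1, 2 and 3. The count of members called lower at 72 h than at 48 h was 0 when limma used the 6 libraries of these times alone. Of the 21231 tested models, 110 were called lower in that fit. When single 48 h or 72 h libraries were left out, 0 to 2 members were called lower, against 167 to 280 of all tested models. The count called higher was 0 under all 13 alternatives, which called 8 to 191 models higher in the whole table. Calls were thus rare in the whole table too, and nothing particular to the members is read from these counts. SMED30020726 had a 72 h minus 48 h difference of -0.024 once 48 h replicate 1 was left out and a range of -0.039 (72 h replicate 1 left out) to 0.118 over the libraries left out, opposite in sign to the full fit in both named cases, and was called in none of the 13 alternatives (adjusted p from 0.661 to 0.980). The median 72 h minus 48 h difference over the members ran from -0.10 to 0.05, that of 48 h minus 0 h from 0.31 to 0.48 and that of 72 h minus 0 h from 0.31 to 0.47. Counts called higher than at 0 h ran from 23 to 41 at 48 h and from 21 to 40 at 72 h. The shares of all tested models called higher than at 0 h were not worked out for these alternatives, so nothing is read from this range. With limma-voom on the recovered reads the whole table gave 191 rises and 495 falls between 48 h and 72 h. Deviations of same-numbered libraries correlated weakly, at -0.06 to 0.11 over 30 pairs, highest for replicates 3 of 48 h and 72 h. The median over the members was nevertheless highest in replicate 3 at every time, with 0.03, 0.21, 0.56, 0.45 and 0.72 at 0, 24, 48, 72 and 96 h. A part of the replicate number among the members was not tested. With the replicate block the whole table gave 67 higher and 259 lower, 0 and 1 of them members, with a median of -0.08. The planned edgeR and DESeq2 fits were not run. Depth limits most members, with a median of 22 reads in their shallowest library.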
